A study of Mus musculus with 9 samples.

Results

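The nuclear genes of the oxidative phosphorylation machinery were followed in pulmonary lymphatic endothelial cells (PLECs) of the fetal mouse lung over the last days of gestation. The members were the genes of the arrays whose symbol starts with *Nduf*, *Uqcr*, *Atp5*, *Cox4i*, *Cox5*, *Cox6*, *Cox7* or *Cox8*, together with *Sdha*, *Sdhb*, *Sdhc*, *Sdhd* and *Cyc1*. This gave 85 of the 25206 genes of the table. Of these, 75 encode structural subunits of complexes I to V and 8 encode assembly factors of complex I (*Ndufaf* genes). The others are *Cox7a2l*, a factor that joins complexes III and IV, and *Ndufa4l2*, a paralog of *Ndufa4*. The subunits encoded by mitochondrial DNA were not analysed here.

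PLECs had been sorted from C57BL/6N embryos as CD45-/Epcam-/CD31+/Vegfr3+/Lyve1+/Pdpn+ cells at E16.5, E17.5 or E18.5, with 3 samples per day and no treatment. Lungs of 2 litters were pooled for each sample, and the p-values refer to the spread among such pools. RNA of each pool was measured on 1 array, and the values are on the log2 scale, where a difference of 1 is a doubling. In such bulk samples, fewer cells of a type and less RNA per cell cannot be told apart.

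Oxidative phosphorylation takes place at the inner mitochondrial membrane. Complex I takes electrons from NADH and complex II takes them from succinate, and both pass them through ubiquinone to complex III. Cytochrome c carries them on to complex IV, which reduces oxygen. Complexes I, III and IV pump protons, and complex V, the ATP synthase, lets the protons flow back to make ATP. In lymphatic endothelium, respiration through complex III is known to be needed for lymphatic growth.

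The promoters of the members are shown first, because NRF1 and ETS-family factors such as NRF2 (GABP) are known to bind the promoters of many respiratory genes. RefSeq start sites (GRCm38.p6) were available for 68 of the 85 members, with 73 windows of 250 bases before the start. The NRF1 core GCATGCG, on either strand, lay in 8 windows (11%), against 3.02% of the windows of all genes and 4.95% of those of all genes tested. The ETS motif CCGGAAG, on either strand, lay in 12 windows (16.4%), against 6.91% and 12.4%. CCAAT, on either strand, lay in 30 windows (41.1%), against 33.8% and 34.7%. The other motifs searched, on both strands, were ACGTG or GCGTG, the core of the hypoxia response element, in 38 windows (52.1%, against 38.6% and 54.2%), and the YY1 core AAGATGG in 1 window (1.37%, against 4.49% and 4.15%). Longer forms had been searched first. The NRF1 core with GC before it and C after it lay in 4 windows (5.48%, against 0.782% and 1.51%), and the YY1 core with CGG after it in 1 (1.37%, against 0.301% and 0.63%), so that the YY1 share was above that of all windows for the longer form and below it for the core. The 73 windows include those of members not tested, and the 66 windows of members tested are the closer match to all genes tested. Of these 66, 12.1% held the NRF1 core, 18.2% the ETS motif, 39.4% CCAAT, 48.5% the hypoxia core and 1.52% the YY1 core. The longer forms lay in 6.06% (NRF1) and 1.52% (YY1) of them. The matches of a motif on the opposite strands can overlap each other. The motifs were chosen after the expression values were known. A match is a description of the sequence, not a bound site.

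The windows that hold both the NRF1 core and the ETS motif are printed, those of *Cox6a1*, a subunit of complex IV (chr5:115348959-115349208, minus strand), and *Atp5j* of the ATP synthase stator (chr16:84834977-84835226, minus strand). Beside them stand *Atp5k* (chr5:108434400-108434649, minus strand) and *Ndufa11* (chr17:56717512-56717761, plus strand), which hold the NRF1 core without the ETS motif. *Atp5b* (chr10:128083057-128083306, plus strand), the catalytic beta subunit of the ATP synthase, holds 5 CCAAT matches and neither of the other 2 motifs. Each window runs 5′ to 3′ and ends at the base before the start, and capitals mark the NRF1, ETS and CCAAT matches on either strand.
Cox6a1: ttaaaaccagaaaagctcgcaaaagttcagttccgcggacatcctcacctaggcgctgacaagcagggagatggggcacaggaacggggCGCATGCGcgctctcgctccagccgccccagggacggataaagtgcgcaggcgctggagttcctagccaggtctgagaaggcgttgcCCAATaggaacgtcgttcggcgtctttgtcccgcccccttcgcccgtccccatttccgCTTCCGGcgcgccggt
Atp5j: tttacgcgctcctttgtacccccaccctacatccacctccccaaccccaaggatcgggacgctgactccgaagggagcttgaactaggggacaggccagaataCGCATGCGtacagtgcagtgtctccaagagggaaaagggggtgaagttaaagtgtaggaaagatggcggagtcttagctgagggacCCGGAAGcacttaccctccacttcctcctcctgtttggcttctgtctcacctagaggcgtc
Atp5k: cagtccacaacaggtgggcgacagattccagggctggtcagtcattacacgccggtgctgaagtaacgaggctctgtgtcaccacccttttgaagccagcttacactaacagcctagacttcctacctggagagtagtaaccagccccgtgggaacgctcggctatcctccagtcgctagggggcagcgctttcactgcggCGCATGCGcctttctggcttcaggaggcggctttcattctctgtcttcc
Ndufa11: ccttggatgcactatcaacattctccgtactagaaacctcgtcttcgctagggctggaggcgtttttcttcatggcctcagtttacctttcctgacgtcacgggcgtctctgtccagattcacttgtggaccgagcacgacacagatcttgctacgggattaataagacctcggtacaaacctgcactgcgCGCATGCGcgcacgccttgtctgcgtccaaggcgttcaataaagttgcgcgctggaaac
Atp5b: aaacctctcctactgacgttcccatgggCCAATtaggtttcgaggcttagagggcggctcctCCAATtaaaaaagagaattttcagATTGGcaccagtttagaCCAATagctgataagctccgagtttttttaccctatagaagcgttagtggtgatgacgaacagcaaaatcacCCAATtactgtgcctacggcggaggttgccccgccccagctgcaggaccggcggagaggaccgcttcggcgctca

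From E16.5 to E18.5 the levels of most respiratory chain and ATP synthase transcripts moved down by a modest amount, with a negative median change in each of the 5 complexes. A gene was tested when its value exceeded the median of 1 array or more, which kept 77 of the 85 members among 14096 genes. The others, *Cox5b*, *Cox7a1*, *Cox7b*, *Cox7b2*, *Cox8b*, *Cox8c*, *Ndufb3* and *Ndufaf5*, stayed below the median on all 9 arrays and were not tested. Of the 77 members, 70 had a lower mean at E18.5 than at E16.5, 6 a higher one and 1 the same (90.9% lower, against 54.6% of all genes tested). Their median log2 change was -0.44, where the median of all genes tested was -0.04.

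At a false discovery rate (FDR q) under 0.05, 10 members were lower at E18.5 (13% of those tested), against 6.21% of all genes tested (limma). They were *Atp5a1*, *Atp5b*, *Atp5d*, *Atp5g3* and *Atp5pb* of complex V, *Ndufv2* and *Ndufs4* of complex I, *Sdha* and *Sdhc* of complex II, and *Cox6a1* of complex IV. *Ndufa4l2* alone was higher (1.3%, against 3.77%). In either direction 9.98% of all genes tested passed. At an unadjusted p under 0.05 (limma), 32 of the 77 members were lower, against 16.9% of all genes tested, and 2 were higher, against 11.1%. In 30 members (39%) every E18.5 sample lay below every E16.5 sample, against 18.3% of all genes tested, and in 2 members (2.6%) every one lay above, against 11.9%. With each array centred on its median, 18 members were lower and 1 higher, and among all genes tested 1337 were lower and 491 higher, in place of 875 and 532. The count of members called lower depended on single pools: it was between 0 and 6 when any 1 of the 6 samples was left out. Among all genes tested, the count called lower was then between 217 and 630, in place of 875. The median change of the members stayed between -0.57 and -0.30.

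**Figure D1:**
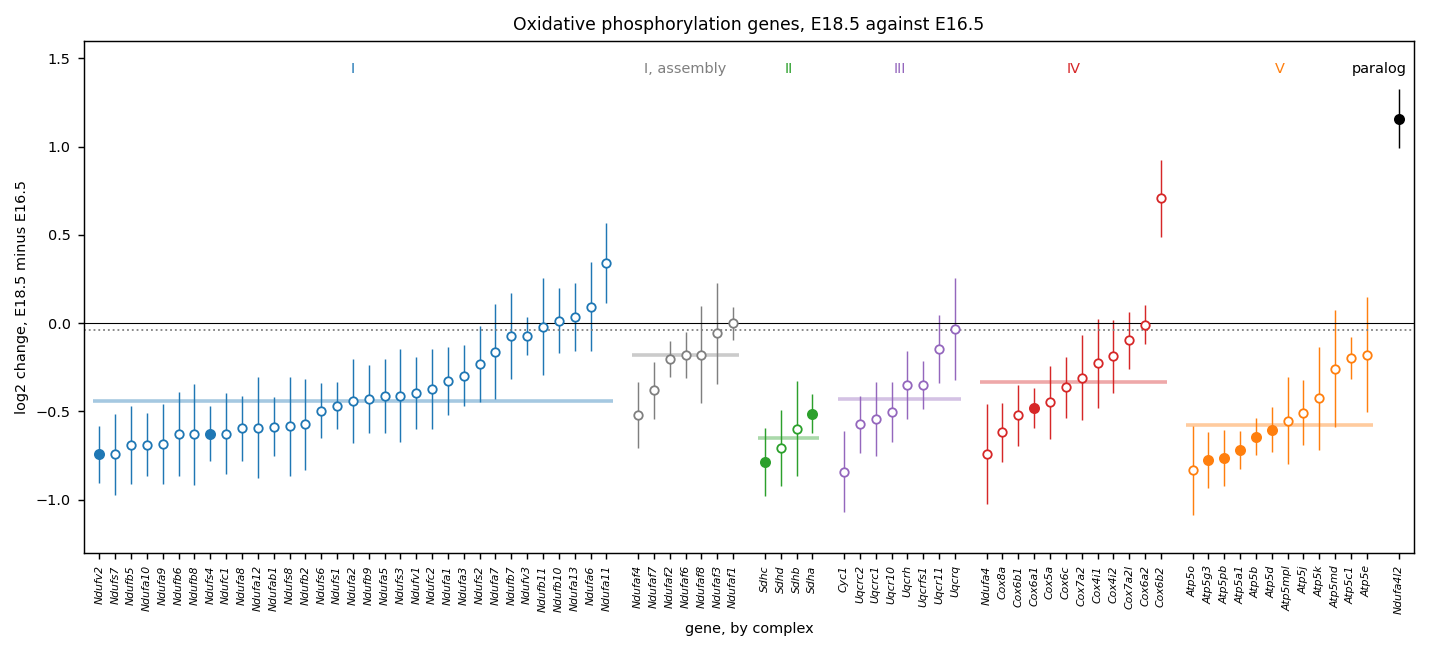
Log2 change from E16.5 to E18.5 (y axis) of each of the 77 members tested (x axis), grouped by complex, with its standard error from limma. Filled points passed an FDR q of 0.05, the coloured bars are the medians of the complexes and the dotted line is the median of all genes tested (-0.04). Nearly all points lie under 0, and *Ndufa4l2* stands highest at 1.16.

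Complex V held the most called members, 5 of 12, and all 12 had a negative change (median log2 change -0.58). *Atp5a1* and *Atp5b* encode the alpha and beta subunits of the catalytic head. *Atp5a1* measured 10.10, 9.99 and 10.11 at E16.5, 9.62, 9.77 and 9.70 at E17.5, and 9.44, 9.24 and 9.37 at E18.5. The 3 days did not overlap, and each day lay below the day before it. Its log2 change over the whole interval was -0.72 ± 0.11 (SE, n = 3 per day), a level 39.2% lower (FDR q = 0.011, limma).

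*Atp5b* showed the same order of days, with 10.80, 10.70 and 10.79 at E16.5, 10.44, 10.53 and 10.41 at E17.5, and 10.23, 10.06 and 10.07 at E18.5. Its log2 change was -0.64 ± 0.10 (SE, n = 3 per day; FDR q = 0.0136, limma). Its spread within days, a pooled SD of 0.07, was the smallest of the 77 members. *Atp5g3*, a subunit of the proton-carrying ring, measured 8.94, 8.42 and 8.85 at E16.5 and 8.06, 7.95 and 7.87 at E18.5, with no overlap. It fell by 0.78 ± 0.16 on the log2 scale (SE, n = 3 per day; FDR q = 0.0279, limma).

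The stator holds the head in place while the ring turns. Its subunit b, encoded by *Atp5pb*, fell by 0.76 ± 0.16 (SE, n = 3 per day; FDR q = 0.0287, limma), with 8.54, 8.21 and 8.39 at E16.5 against 7.83, 7.65 and 7.36 at E18.5. *Atp5d*, the delta subunit of the central stalk, fell by 0.60 ± 0.13 (SE, n = 3 per day; FDR q = 0.0316, limma), from 10.03, 9.66 and 9.91 to 9.33, 9.26 and 9.19. Neither gene overlapped between these days. The largest change of the complex, in *Atp5o* of the stator (-0.83), did not pass (FDR q = 0.0858, limma), with E18.5 samples between 4.29 and 5.35. *Atp5k*, *Atp5md* and *Atp5mpl*, 3 members of the membrane part outside the ring and the stator, changed by between -0.55 and -0.26 and overlapped between the days. *Atp5c1* and *Atp5e*, the gamma and epsilon subunits of the central stalk, gave -0.20 and -0.18 and did not pass either.

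**Figure D2:**
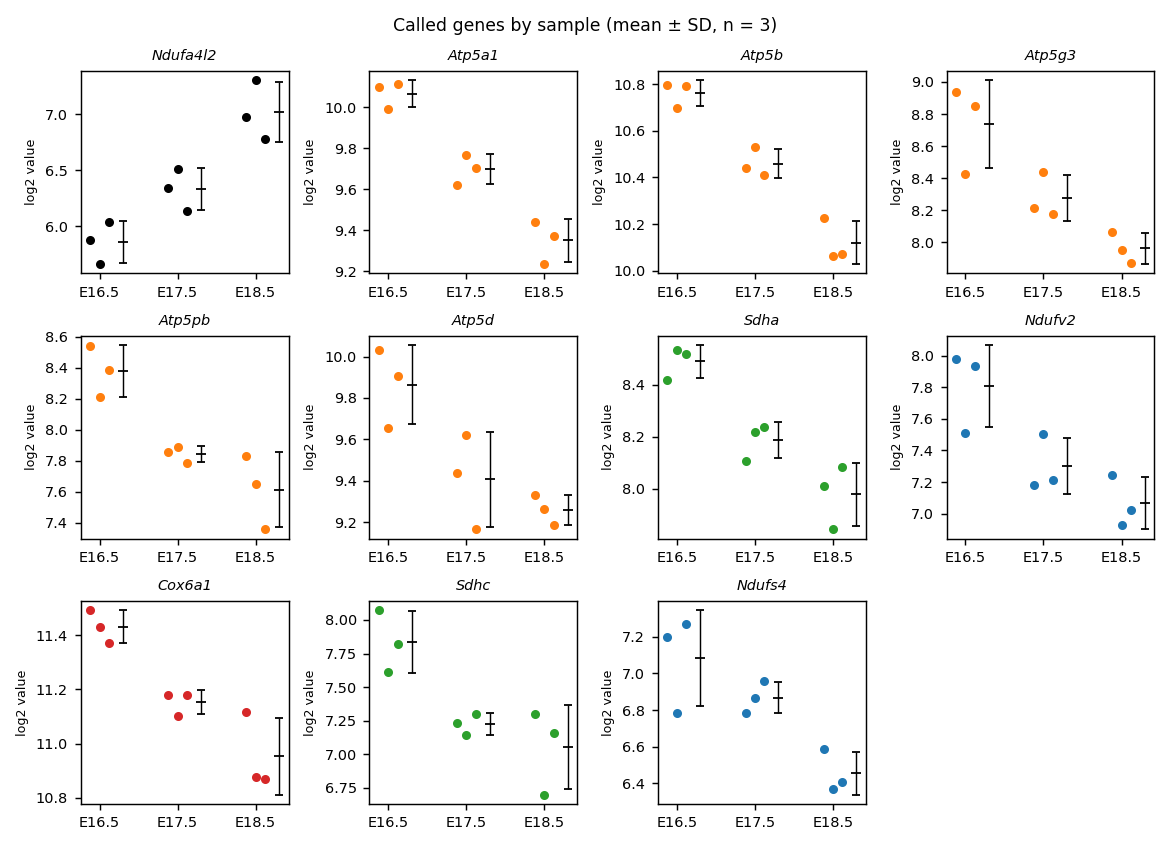
Log2 value (y axis) of the 11 members called between E16.5 and E18.5, by day (x axis), with each of the 3 samples of a day as a point in the order of the replicates and the mean ± SD beside them. The y axes differ between panels and do not start at 0. In all 11 panels the E18.5 points lie clear of the E16.5 points, above them for *Ndufa4l2* and below them for the others.

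Complex II, which is also an enzyme of the tricarboxylic acid cycle, is the 1 complex encoded by nuclear genes alone. All 4 of its subunits were tested, all 4 changes were negative, and the median (-0.65) was the largest fall of the 5 complexes. *Sdha*, the flavoprotein that oxidizes succinate, measured 8.42, 8.53 and 8.52 at E16.5, 8.11, 8.22 and 8.24 at E17.5, and 8.01, 7.84 and 8.08 at E18.5. The 3 days did not overlap, and the fall from E16.5 to E18.5 was 0.51 ± 0.11 on the log2 scale (SE, n = 3 per day; FDR q = 0.0325, limma).

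*Sdhc*, a membrane anchor, measured 8.07, 7.62 and 7.82 at E16.5 and 7.30, 6.70 and 7.16 at E18.5. It fell by 0.79 ± 0.19 (SE, n = 3 per day), at an FDR q of 0.0474 by limma that lay close to the threshold. *Sdhd*, the other anchor, had a log2 change of -0.71 (FDR q = 0.0866, limma) with no overlap between the days, and *Sdhb*, the iron-sulfur subunit, one of -0.60 (FDR q = 0.199, limma) with overlap. Of the 4 changes, between -0.79 and -0.51, the 2 with the smallest standard errors passed.

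Complex I had 33 members tested, 29 of them with a negative change, at a median of -0.44. *Ndufv2* and *Ndufs4* were called. *Ndufv2*, a core iron-sulfur subunit near the site where NADH is oxidized, measured 7.98, 7.51 and 7.93 at E16.5, 7.18, 7.50 and 7.21 at E17.5, and 7.25, 6.93 and 7.02 at E18.5. It fell by 0.74 ± 0.16 on the log2 scale (SE, n = 3 per day; FDR q = 0.0343, limma), with no overlap between the first and the last day. *Ndufs4*, an accessory subunit whose loss causes mitochondrial encephalopathy in mice, measured 7.20, 6.78 and 7.27 at E16.5 against 6.59, 6.37 and 6.41 at E18.5 (log2 change -0.63 ± 0.15, SE, n = 3 per day; FDR q = 0.0487, limma).

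Both called genes belong to the NADH-oxidizing module of complex I, in which all 8 members had a negative change (median -0.48). The ubiquinone-binding module had 7 of 8 (median -0.41) and the membrane arm with *Ndufab1*, the acyl carrier protein, had 14 of 17 (median -0.43), with 0 called in either (limma; 2 and 6 members at an unadjusted p under 0.05). The 7 core subunits, which carry the redox centres, had a median of -0.47, and the 26 accessory subunits one of -0.43. The difference between the modules was not tested. Next in order of p were *Ndufa10* (log2 change -0.69, FDR q = 0.0564, limma) and *Ndufs1*, the largest subunit (-0.47, FDR q = 0.0714, limma), both without overlap. The largest rise in the complex was that of *Ndufa11* (0.34, FDR q = 0.357, limma), at values between 3.62 and 4.57 that reached the array median on 7 of 9 arrays. The assembly factors of complex I had a median of -0.18 over 7 tested, and 3 of the 7 (42.9%) lay wholly lower at E18.5, against 27.3% of the complex I subunits. The difference from the subunits was not tested. Of the assembly factors, 0 were called by limma, with 1, *Ndufaf4*, at an unadjusted p under 0.05 (log2 change -0.52, FDR q = 0.131).

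In complex III all 8 members had a negative change (median -0.43), although *Uqcrq* gave 0.044 after a second quantile normalization, and 0 passed (limma; 5 at an unadjusted p under 0.05). *Cyc1*, cytochrome c1, had the largest negative change of all 77 members, at -0.84 ± 0.23 (SE, n = 3 per day; FDR q = 0.0644, limma). It measured 6.52, 6.40 and 6.73 at E16.5, 6.16, 6.36 and 6.15 at E17.5, and 6.07, 5.20 and 5.85 at E18.5, so that the first and the last day did not overlap but the E18.5 samples spread widely. The core protein *Uqcrc2* gave -0.57 (FDR q = 0.0686, limma) and the Rieske iron-sulfur protein *Uqcrfs1* -0.35 (FDR q = 0.149, limma), neither with overlap. At the other end, *Uqcrq*, a small subunit, gave -0.03.

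Complex IV had the smallest median of the 5 complexes (-0.34 over 12 tested) and the widest range, from -0.74 in *Ndufa4* to 0.71 in *Cox6b2*. Its common nuclear subunits all had a negative change (8 of 8, median -0.46). *Cox6a1*, the common isoform of subunit 6a, measured 11.49, 11.43 and 11.37 at E16.5, 11.18, 11.10 and 11.18 at E17.5, and 11.12, 10.88 and 10.87 at E18.5. It fell by 0.48 ± 0.11 (SE, n = 3 per day; FDR q = 0.0439, limma) with no overlap between the first and the last day. *Cox8a* gave -0.62 (FDR q = 0.062, limma), *Cox6b1* -0.52 (FDR q = 0.102, limma), *Cox4i1* -0.23 (FDR q = 0.58, limma) and *Cox7a2* -0.31 (FDR q = 0.432, limma). *Cox7a2l* gave -0.10 (FDR q = 0.724, limma).

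The tissue-restricted isoforms of complex IV held 0 called members (limma, 3 tested; 1 at an unadjusted p under 0.05). *Cox6b2*, known from testis, measured 5.03, 5.06 and 5.07 at E16.5, 5.28, 5.15 and 5.27 at E17.5, and 6.22, 5.75 and 5.31 at E18.5. All E18.5 samples lay above all E16.5 samples, but by very different amounts, and the log2 change of 0.71 ± 0.22 (SE, n = 3 per day) did not pass (FDR q = 0.0892, limma). *Cox4i2*, the lung isoform of subunit 4, known to be induced by low oxygen, overlapped between the days (-0.19, FDR q = 0.576, limma), and *Cox6a2* of heart and muscle lay between 3.76 and 4.04 in all 9 samples (log2 change -0.01). The heart, muscle and testis isoforms *Cox7a1*, *Cox7b2*, *Cox8b* and *Cox8c* stayed below the array median and were not tested, as did the common *Cox7b*.

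*Ndufa4l2* had the largest change of the module and the opposite direction. The gene encodes a paralog of the complex IV subunit *Ndufa4*, is a known target of HIF-1 and is known to lower complex I activity. It measured 5.88, 5.66 and 6.04 at E16.5, 6.34, 6.51 and 6.13 at E17.5, and 6.97, 7.30 and 6.78 at E18.5. The 3 days did not overlap, each day lay above the day before it, and the rise was 1.16 ± 0.17 on the log2 scale (SE, n = 3 per day), or 2.23-fold (FDR q = 0.0104, limma). It was the one member with a positive change in this comparison to pass, and its rise was called with any 1 of the 6 samples left out (FDR q between 0.0155 and 0.0461, limma). *Ndufa4* itself measured 9.20, 8.59 and 9.35 at E16.5 and 8.50, 7.77 and 8.64 at E18.5 (log2 change -0.74 ± 0.28, SE, n = 3 per day; FDR q = 0.144, limma), with overlap.

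**Figure D3:**
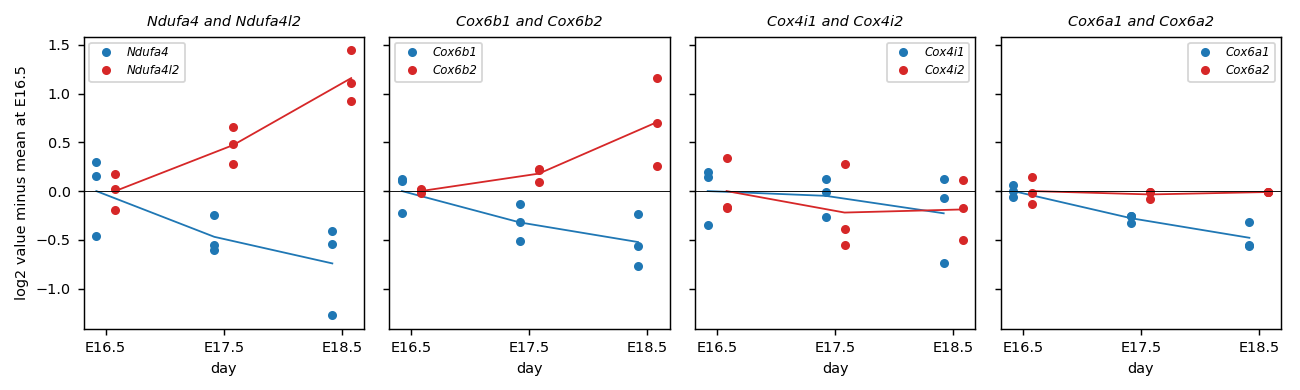
Log2 value of each sample minus the mean of the gene at E16.5 (y axis) by day (x axis), for 4 pairs of common (blue) and restricted (red) genes, with lines through the day means (n = 3 samples per day). *Ndufa4l2* and *Cox6b2* end above 0 and their common partners below it, while *Cox4i2* and *Cox6a2* overlap between the days.

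*Ndufa4l2* is also expressed by pericytes and was read beside other genes, with lists written after its values had been seen. Of 7 pericyte markers tested, 0 were called (limma; 0 at an unadjusted p under 0.05), with a median log2 change of -0.09. Their changes were positive in 3 and negative in 4, and ran from -0.28 to 0.68. *Rgs5* gave -0.09 and *Pdgfrb* -0.28. Of 18 hypoxia-induced genes tested, 2 were higher, 0 lower and 16 not called (11.1% higher, against 3.77% of all genes tested, median 0.10). At an unadjusted p under 0.05, 3 were higher and 2 lower (limma), and 10 changes were positive and 8 negative. The 2 called were *Vegfa*, the vascular growth factor (1.48, FDR q = 0.00533, limma), and *Bnip3*, a mitophagy receptor (0.72, FDR q = 0.0333, limma). *Pdk1* and *Ldha*, which steer pyruvate away from the mitochondria, gave -0.25 and -0.15 and were not called. *Hif1a* itself gave -0.07 (FDR q = 0.808, limma).

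Over the 3 days together, the F test called 10 of the 77 members, against 9.09% of all genes tested (limma). All of them were among the 11 above, and *Atp5d* was left out (FDR q = 0.0542, limma). In the earlier step, E17.5 against E16.5, the median log2 change was -0.27 and 67 of 77 changes were negative, and in the later step, E18.5 against E17.5, it was -0.16 with 62 negative. In neither step did a single member pass: 0 were called in the earlier step, against 0.149% of all genes tested lower and 0% higher (limma). At an unadjusted p under 0.05, 21 of the 77 members were lower in this step, against 9.27% of all genes tested. In the other direction 1 was higher, against 5.44%. In the later step 0 were called, against 0.717% of all genes tested lower and 1.18% higher (limma). At an unadjusted p under 0.05, 6 of the 77 members were lower, against 9.04% of all genes tested, and 2 were higher, against 8.56%. With array quality weights, 12 members were called in the earlier step and 1 in the later one. The calls of all genes by step were not counted with these weights, so no share stands beside these 2 counts. The difference between the steps was called for 0 members (0% of all genes tested, limma; 1 member at an unadjusted p under 0.05). The mean fell at both steps in 55 members and rose at both in 3. The medians of complex I were -0.34 and then -0.15, those of complex II -0.42 and -0.21, and those of complex V -0.34 and -0.22.

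The members moved together from sample to sample, and not by day alone. The deviation of a gene from its own mean over the 9 samples, averaged over the 77 members, was 0.34, -0.05 and 0.33 at E16.5, -0.09, 0.10 and -0.12 at E17.5, and -0.06, -0.42 and -0.04 at E18.5. The second sample of E16.5 thus stood apart from the other two of its day, near the E17.5 samples, and the second sample of E18.5 lay below all others. The second sample of E16.5 was the lowest of its day in 65 of 77 members (84.4%), against 38.7% of all genes tested. The second of E18.5 was the lowest in 60 (77.9%), against 37%, and the second of E17.5 was the highest in 57. The other 2 samples of E16.5 lay above all 6 later samples in this mean.

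**Figure D4:**
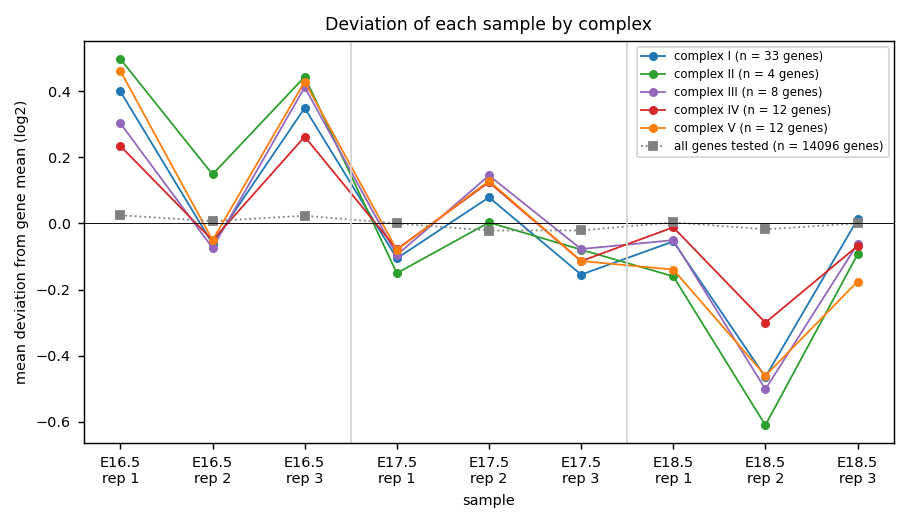
Mean deviation of the genes of each complex from their own 9-sample means (y axis, log2) in each sample (x axis, 3 samples per day, separated by grey lines), with all genes tested as the dotted line. The complexes run nearly in parallel, with the second sample low at E16.5 and E18.5 and high at E17.5, while all genes tested stay near 0.

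All 5 complexes shared this pattern, from 0.23 in the first E16.5 sample to -0.30 in the second E18.5 sample for complex IV, and from 0.50 to -0.61 for complex II. After the day means were taken out, a member correlated with the mean of the other members at a median r of 0.84 (n = 9 samples, which share their arrays and their normalization), and 52 of 77 (67.5%) were over 0.7, against 12.1% of the other genes tested. *Ndufs8* (0.99) and *Ndufb9* (0.98) were most alike to the rest. *Ndufab1* (-0.61), *Cox6a2* (-0.56) and *Ndufaf4* (-0.34) ran against it, and *Ndufa4l2* was near 0 (0.02). The genes with the smallest swings within days included several of those called, such as *Sdha* (SD 0.06, 0.07 and 0.12 on the 3 days), whereas the pooled SD reached 0.49 in *Ndufb11*, with a median of 0.26 over the members and 0.22 over all genes tested. With both second samples of E16.5 and E18.5 left out, the median change of the members was -0.43, but 0 members and 0 of all genes were called (limma, 2 samples per day; 46 members at an unadjusted p under 0.05). These 2 samples were chosen after seeing that most members were lowest in them, and leaving them out narrows the spread of such members within days. How many of all genes reached that unadjusted p was not counted.

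Ribosomal protein genes were set beside these samples. The 73 mitochondrial ribosomal protein genes tested had the second E16.5 sample lowest in 89% and the second E18.5 sample lowest in 76.7%. The 47 cytosolic ribosomal protein genes tested had them lowest in 78.7% and 42.6%, the latter near the 37% of all genes tested. What set these samples apart was not tested.

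Other mitochondrial genes were compared over the same days by lists from general knowledge. Of the mitochondrial ribosomal protein genes, 10 of 73 were lower and 0 higher (median -0.43), and of the cytosolic ones 0 of 47 were called (limma; 11 lower at an unadjusted p under 0.05, median -0.24). Of 24 genes of the tricarboxylic acid cycle and pyruvate dehydrogenase, 7 were lower (29.2%) and 0 higher, with a median of -0.38. They included *Idh3a* of isocitrate dehydrogenase (-0.73, FDR q = 0.02, limma), *Cs*, citrate synthase (-0.67, FDR q = 0.0229, limma), and *Dld* (-0.55) and *Pdhx* (-0.53) of the pyruvate dehydrogenase complex.

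Of 17 genes of mitochondrial carriers, import and the outer membrane, 8 were lower (47.1%) and 0 higher, with a median of -0.50. *Hspd1*, the matrix chaperonin, fell by 0.94 (FDR q = 0.00885, limma), *Tomm40*, the import pore, by 0.89 (FDR q = 0.00793), *Phb2*, a prohibitin, by 0.77 and *Vdac1*, the porin, by 0.70. Of 18 genes of electron carriers and coenzyme Q synthesis, *Etfa* (-0.66), *Coq5* (-0.59) and *Coq7* (-0.66) were lower and *Coq8b* was higher (0.74, FDR q = 0.02, limma). *Cycs*, cytochrome c, was under the array median and not tested.

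The remaining lists held no called gene. Of 45 assembly factors of complexes I to V, 0 were called (limma; 11 lower at an unadjusted p under 0.05, median -0.28). Of 17 regulators of mitochondrial gene expression, 0 were called (limma; 5 lower at an unadjusted p under 0.05, median -0.28). Among these, *Nrf1* gave -0.35 (FDR q = 0.125), *Gabpa* -0.32 (FDR q = 0.229), *Tfam*, which packages mitochondrial DNA, -0.51 (FDR q = 0.185) and *Ppargc1b*, a coactivator, -0.50 (FDR q = 0.0596), all by limma. *Ppargc1a* gave -0.04. Among the 10 members called lower, 8 had a promoter window, of which 1 (*Cox6a1*) held the NRF1 core and the ETS motif and 4 held CCAAT. Of the windows of all members tested, 12.1% held the NRF1 core, 18.2% the ETS motif and 39.4% CCAAT. For all genes tested these shares were 4.95%, 12.4% and 34.7%. *Atp5j* had a change of -0.51 (FDR q = 0.129, limma), and *Ndufa11* a positive one.

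Genes of other states of the cells moved over the same days, and their part in the fall of the members was not tested. All 12 cell cycle genes listed fell, with log2 changes from -2.06 (*Mcm5*) to -0.83 (*Pcna*). The sort markers were present: of 6 lymphatic markers, *Pdpn* rose by 1.46 (FDR q = 0.0149, limma) and 5 were not called, with *Flt4* at -0.04, and of 4 markers of all endothelium 0 were called (limma; 0 at an unadjusted p under 0.05). All 5 alveolar type I markers rose, from 4.72 to 5.01 as the mean log2 level of a sample at E16.5 to 6.53 to 6.89 at E18.5, with no overlap. All 5 alveolar type II markers had a positive change (mean levels 6.11 to 7.34, then 7.69 to 8.15). Of these, 1 was called and 3 were at an unadjusted p under 0.05 (limma). All 4 airway markers had a positive change (4.68 to 5.37, then 6.03 to 6.85), with 1 called and 2 at an unadjusted p under 0.05 (limma). Of the blood endothelial markers 2 of 5 were called higher and 1 of 5 lower (7.46 to 7.82, then 8.23 to 8.59). At an unadjusted p under 0.05, 3 of these were higher and 1 lower (limma). Of the leukocyte, erythroid, platelet, cardiac muscle, and fibroblast and smooth muscle markers tested, 0 were called (limma; 3 platelet markers and 1 of fibroblasts and smooth muscle were higher at an unadjusted p under 0.05).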

How the data were processed

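Total RNA of sorted PLECs had been labelled and hybridised to Affymetrix Mouse Gene ST arrays, 1 array per sample and 3 samples for each of the 3 days. The log2 values used here are those deposited: per the labels, the authors made them by RMA (background correction, quantile normalization and summary) with affy 1.36.1 under R 2.15.1, 1 row per Entrez gene (mapping version 17.0.0). Quantile normalization sets the arrays to 1 distribution, so only changes relative to other genes can be seen. Symbols came from the platform annotation, updated through the Entrez ID, which named 1 member. Arrays give no counts, and their number limits the precision.

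E18.5 against E16.5 was fitted with limma 3.58.1 (R 4.3.3) on the 6 arrays of these days, and the F test and the steps on all 9. Tests covered the 14096 genes that exceeded the median of 1 array or more, and q values are Benjamini-Hochberg values over them. The fits were tested on simulated data. Medians of lists have no test. The members and lists were chosen with earlier results of these data known. Members were named where called, then by p up to 16, with the extremes of each complex, paired isoforms, complex II, *Cyc1* and up to 4 called genes of each list; others named, among them those of the hypoxia and pericyte lists, were chosen after their values were seen. Replicate numbers did not pair the samples over all 3 days, and the main fits used no block.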

Additional observations from a re-analysis of the deposited data

How the results depend on the processing

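The direction of the module held better than its calls. With another filter, scaling, model or choice of members, the median change of the members from E16.5 to E18.5 lay between -0.52 and -0.41, and the medians of complexes I to V between -0.73 and -0.21. With 1 sample left out, the median of the members lay between -0.57 and -0.30, that of complex I between -0.57 and -0.26, of complex II between -0.82 and -0.49, of complex III between -0.59 and -0.34, of complex IV between -0.49 and -0.22, and of complex V between -0.70 and -0.48. Of the 41 members tested and named here, 5 with small changes reversed in some settings and 36 in none. *Uqcrq* (0.044) and *Ndufb11* (0.067) did so after a second quantile normalization, and *Cox6a2* (0.039) with array quality weights. With 1 sample left out, *Ndufb11* lay between -0.32 and 0.20, *Uqcrq* between -0.27 and 0.21, *Cox6a2* between -0.075 and 0.064, *Atp5e* between -0.53 and 0.040, and *Cox4i1* between -0.40 and 0.026. Without the second samples of E16.5 and E18.5 together, *Uqcrq* gave 0.041 and *Cox6a2* 0.063.

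The 11 calls of E18.5 against E16.5 (10 lower and 1 higher) became 5 (4 lower) with no filter, 7 (6 lower) with an intensity trend and robust eBayes, 17 (2 higher) with array quality weights, 19 (18 lower) with arrays centred on their median, 21 (19 lower and 2 higher) in the fit on all 9 arrays, and 0 (0 lower and 0 higher, of 0 among all genes tested) without moderation, where 20 members were at an unadjusted p under 0.05. Among all genes, the calls moved as well, from 1407 to 889 of 25206 with no filter and 1173 with the trend and robust eBayes. They were 1694 with array quality weights, 1828 with centring and 2018 in the fit on all 9 arrays. Among structural subunits only, 0 were higher by limma, with 1 at an unadjusted p under 0.05. With 1 sample left out, between 1 and 8 members were called, 0 to 6 lower and 1 to 2 higher. Of all genes tested, between 390 and 1210 were called in these fits. Without the second samples of E16.5 and E18.5 together, an alternative chosen after seeing the data, 0 were called in either direction, with 46 at an unadjusted p under 0.05. The calls over the 3 days, 10, became 5 with no filter, 16 with centring and 24 with array quality weights, and 3 to 11 with 1 sample left out. The steps had 12 and 1 calls with array quality weights, and 0 and 0 to 3 with 1 sample left out. The causes of the differences between settings were not tested. For all genes, the calls over the 3 days and by step were not counted in these settings. Their number at an unadjusted p under 0.05 was not counted either. The matching counts of members thus have no share of all genes beside them.

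The replicate numbers did not pair the samples over all 3 days: without the day means, r was between -0.36 and 0.29 over the 9 same-numbered pairs, and over 0.1 in 2 of them. The highest r, 0.29, was that of the second samples of E16.5 and E18.5, which were low for most members. Their r with the second sample of E17.5 was -0.36 and -0.13. Whether the second samples of E16.5 and E18.5 share a factor was not tested. With the replicate block, 21 members were called between E16.5 and E18.5, 20 of them lower and 1 higher, and 5 over the 3 days. Of all genes tested, 1336 were called between E16.5 and E18.5 with the block, in place of 1407. Those called over the 3 days with the block were not counted. With 3 pools a day, a median standard error of 0.19 on the log2 scale limits what can be called. The signal of the 8 members below the array median is near background.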
